A study of Mus musculus with 6 samples.

Results

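The expression of 8 genes of the cell's apoptosis machinery was examined in developing retinal ganglion cells (RGCs), the neurons whose axons form the optic nerve. The genes were the caspases Casp2, Casp6 and Casp9, the caspase activator Apaf1, the caspase inhibitor Xiap and its antagonist Diablo, the transcription factor gene Trp53 (p53), and Mdm2, which encodes the principal inhibitor of p53. They were taken by symbol from the 24060 genes of the count table, and all 8 passed the filter on low counts, as did 16449 genes in all. RGCs came from untreated C57BL/6 mice of 2 ages, embryonic day 18 (E18, replicates 1, 3 and 4) and postnatal day 5 (P5, replicates 6, 8 and 9), with 3 samples at each. No transgene, virus or injury is given for any of them. Retinas were dissociated with papain, macrophages were removed with antibodies, and RGCs were held on dishes coated with an antibody against CD90 (Thy1), so the samples are populations enriched in RGCs. The study set the ages against each other because RGCs extend axons readily at E18 and have lost much of that ability by P5. The labels do not say whether samples came from separate litters or animals, so p-values measure the spread between these samples, which may be technical.

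In the intrinsic pathway of apoptosis, cytochrome c leaves the mitochondria and binds APAF1, which assembles into the apoptosome and activates caspase-9, the initiator that in turn cleaves executioner caspases. XIAP binds caspase-9 and some of the executioner caspases and blocks them. DIABLO (SMAC), released from mitochondria together with cytochrome c, displaces XIAP. The transcription factor p53 switches on genes for death and for cell cycle arrest, among them its own ubiquitin ligase Mdm2, while caspase-2 can be activated on a separate platform, the PIDDosome. A large share of RGCs die by apoptosis in normal mouse development around birth, when cell number is matched to the targets of their axons.

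Trp53, Casp2 and Casp6 were higher at E18 than at P5, Xiap was lower, and the other 4 genes did not pass the test. By edgeR's quasi-likelihood test with Benjamini-Hochberg adjustment over all 16449 genes (threshold 0.05), 4 of the 8 genes were called, which has to be read against 43.4% of all genes. Among all genes 20.8% were called higher at E18 and 22.5% lower, against 3 and 1 of the 8. The median log2 fold change of the 8 genes, E18 over P5, was 0.20, and that of all genes was 0.00. The E18 and P5 values did not overlap in the 4 called genes, as was the case for 56.1% of all genes. One sample weighed on the other 4: without P5 replicate 8 all 8 genes passed, 6 of them higher and 2 lower at E18, where 52.5% of all genes passed. Without P5 replicate 9 the same 4 genes lay closer to 0 and did not pass. In bulk RNA, fewer cells of a type and less RNA per cell cannot be told apart.

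The promoters are shown for Casp2 and Casp6, which were both higher at E18, and for Mdm2, whose upstream bases hold the letters bound by Ets factors, the family of Elk-1, the factor the study followed. Each is the 250 bases before the start site, read 5′ to 3′ in the direction of the gene, from RefSeq on GRCm38.p6 (the assembly of mm10). Capitals mark matches, on either strand, to the Ets core CCGGAAG, to the E2F letters TTTCCCGC, to the E-box CACGTG, to ATTGG, the reverse complement of the CCAAT box, to the GC box GGGCGG and to TGCGCA, the core of NRF1 sites. Casp2 lies at chr6:42264735-42264984 on the plus strand, Casp6 at chr3:129901165-129901414 on the plus strand and Mdm2 at chr10:117710759-117711008 on the minus strand.
Casp2: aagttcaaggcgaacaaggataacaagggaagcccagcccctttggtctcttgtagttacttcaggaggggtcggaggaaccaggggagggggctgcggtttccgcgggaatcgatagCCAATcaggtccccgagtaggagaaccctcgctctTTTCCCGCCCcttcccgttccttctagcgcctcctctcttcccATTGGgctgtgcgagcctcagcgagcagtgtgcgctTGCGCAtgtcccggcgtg
Casp6: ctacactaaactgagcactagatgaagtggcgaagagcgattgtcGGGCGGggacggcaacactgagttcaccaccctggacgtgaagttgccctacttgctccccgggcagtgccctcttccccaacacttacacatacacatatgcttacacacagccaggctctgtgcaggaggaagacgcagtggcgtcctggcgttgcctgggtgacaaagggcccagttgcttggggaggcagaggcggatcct
Mdm2: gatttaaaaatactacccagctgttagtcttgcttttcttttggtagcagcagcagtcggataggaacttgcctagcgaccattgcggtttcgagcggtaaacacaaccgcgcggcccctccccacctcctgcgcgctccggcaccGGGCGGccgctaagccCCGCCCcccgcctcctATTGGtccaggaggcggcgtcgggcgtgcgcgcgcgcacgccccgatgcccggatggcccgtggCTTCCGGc

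The Casp2 stretch holds E2F letters, which share bases with a GC box, as well as 2 CCAAT boxes and the NRF1 letters, whereas Casp6 holds a single GC box. The Mdm2 stretch ends with the Ets core, on the opposite strand, after 2 GC boxes and a CCAAT box. Windows of 300 bases, which add the 50 bases after the start, were searched for all 8 genes and for 32851 promoters in all. The 8 genes had 10 windows, since Xiap had several, and a gene is named below if any of its windows matched. The motifs were chosen with these promoters in view, so the shares of all windows are no test. The E2F letters were found in 1.07% of all windows and among the 8 genes in Casp2. The Ets core was found in 8.86% of all windows and in Diablo and Mdm2, the E-box in 7.15% and in Trp53, and the NRF1 core in 7.76% and in Casp2 and Xiap. The GC box was found in 35.7% of all windows and in 8 of the 10 windows, in every one of the 8 genes but Trp53. The CCAAT box was found in 37.4% of all windows and in Casp2, Diablo, Trp53 and Mdm2. The window of Apaf1 was 74.7% G and C, with 46 CpG dinucleotides, and that of Trp53 was 52.7%, against a median over all windows of 52.7% and 7 CpG dinucleotides. A match is a stretch of letters, and binding was not measured in these samples.

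Casp2 encodes an initiator caspase and lies at chr6:42264985-42282508 on mm10. It was counted at 60.7, 66.0 and 62.4 CPM (counts scaled to a common library size, with TMM normalization) in E18 replicates 1, 3 and 4, and at 29.2, 42.7 and 21.7 CPM in P5 replicates 6, 8 and 9. All E18 samples lay above all P5 samples, and the P5 samples were far apart, with a coefficient of variation of 34.1% against 4.32% at E18. The means were 63.0 ± 2.72 CPM at E18 and 31.2 ± 10.6 CPM at P5 (SD, n = 3), and the log2 fold change was 1.01 (SE 0.21, 95% interval 0.54 to 1.49, adjusted p = 0.00571 by edgeR). P5 replicate 8 was the P5 sample nearest to E18, and without it the log2 fold change was 1.29.

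Casp6, at chr3:129901425-129914103, encodes an executioner caspase known for its part in the degeneration of axons. It was the most sparsely expressed of the 8 genes, with 368, 562 and 347 reads at E18 and 226, 228 and 153 reads at P5. These came to 4.44, 5.01 and 3.83 CPM at E18 and 2.55, 2.32 and 1.63 CPM at P5. The ages did not overlap, and the P5 sample with the highest value was replicate 6 and not replicate 8. The means were 4.43 ± 0.590 and 2.16 ± 0.480 CPM (SD, n = 3), with a log2 fold change of 1.03 (SE 0.23, 95% interval 0.52 to 1.55, adjusted p = 0.00716 by edgeR).

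Casp9, the initiator caspase of the apoptosome, lies at chr4:141793612-141815976. It stood at 60.4, 56.7 and 66.7 CPM at E18 and at 49.8, 64.7 and 46.4 CPM at P5. P5 replicate 8 fell within the E18 range, and the other P5 samples lay below it. The log2 fold change was 0.19 (SE 0.14, 95% interval -0.12 to 0.50, adjusted p = 0.281 by edgeR), and without P5 replicate 8 it was 0.33, with an adjusted p of 0.0179. The 3′ part of Casp9 overlaps Cela2a and Ctrc on the opposite strand by 1015 bases each. These had at most 10 and 3 reads in any sample, against at least 4366 for Casp9.

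Apaf1, the scaffold of the apoptosome, lies at chr10:90989311-91082770. It was counted at 73.9, 77.9 and 77.0 CPM at E18 and at 65.2, 76.4 and 57.4 CPM at P5. The pattern was that of Casp9, in that P5 replicate 8 lay among the E18 samples and the other P5 samples below them. The log2 fold change was 0.20 (SE 0.11, 95% interval -0.06 to 0.46, adjusted p = 0.180 by edgeR), and without P5 replicate 8 it was 0.30, with an adjusted p of 0.0170.

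Xiap, the X-linked inhibitor of apoptosis, lies at chrX:42059679-42109656 and was the one of the 8 genes called lower at E18. It was counted at 100.4, 104.5 and 110.0 CPM at E18 and at 198.9, 164.9 and 190.4 CPM at P5. The lowest P5 sample, replicate 8, stood well above the highest E18 sample. The means were 105 ± 4.81 CPM at E18 and 185 ± 17.7 CPM at P5 (SD, n = 3), so that Xiap was 1.76-fold higher at P5. The log2 fold change, E18 over P5, was -0.82 (SE 0.10, 95% interval -1.04 to -0.59, adjusted p = 0.000581 by edgeR), the smallest adjusted p of the 8 genes.

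Diablo, which encodes the mitochondrial antagonist of XIAP, lies at chr5:123509765-123524176. It stood at 56.9, 60.6 and 59.7 CPM at E18 and at 69.1, 57.3 and 73.5 CPM at P5. P5 replicates 6 and 9 were above every E18 sample, and P5 replicate 8 was among them. The log2 fold change was -0.17 (SE 0.11, 95% interval -0.42 to 0.07, adjusted p = 0.224 by edgeR), and without P5 replicate 8 it was -0.29, with an adjusted p of 0.0109. Diablo overlaps B3gnt4 on the opposite strand by 1423 bases, and B3gnt4 had 60 to 122 reads per sample against at least 4716 for Diablo. It also shares 12095 bases with the annotated gene Gm49027 on the same strand, which was not analysed here, so reads of the pair could not be separated.

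Trp53, at chr11:69580359-69591873, encodes p53. It was counted at 11.6, 9.95 and 9.01 CPM at E18 and at 6.11, 5.82 and 5.96 CPM at P5. The P5 samples lay close together, with the smallest spread relative to the mean of the 8 genes at that age, and all E18 samples lay above them. The means were 10.2 ± 1.30 and 5.97 ± 0.147 CPM (SD, n = 3), and the log2 fold change was 0.77 (SE 0.14, 95% interval 0.44 to 1.10, adjusted p = 0.00363 by edgeR). Mice carry a processed pseudogene of Trp53, and how reads that map to several places were counted is not given in the sources used here.

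Mdm2, whose product ubiquitinates p53 and whose gene is itself a target of p53, lies at chr10:117688875-117710758. It stood at 99.6, 107 and 84.0 CPM at E18 and at 76.9, 102 and 76.0 CPM at P5, with P5 replicate 8 inside the E18 range. The log2 fold change was 0.19 (SE 0.14, 95% interval -0.13 to 0.51, adjusted p = 0.299 by edgeR), and without P5 replicate 8 it was 0.33, with an adjusted p of 0.0450.

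**Figure D1:**
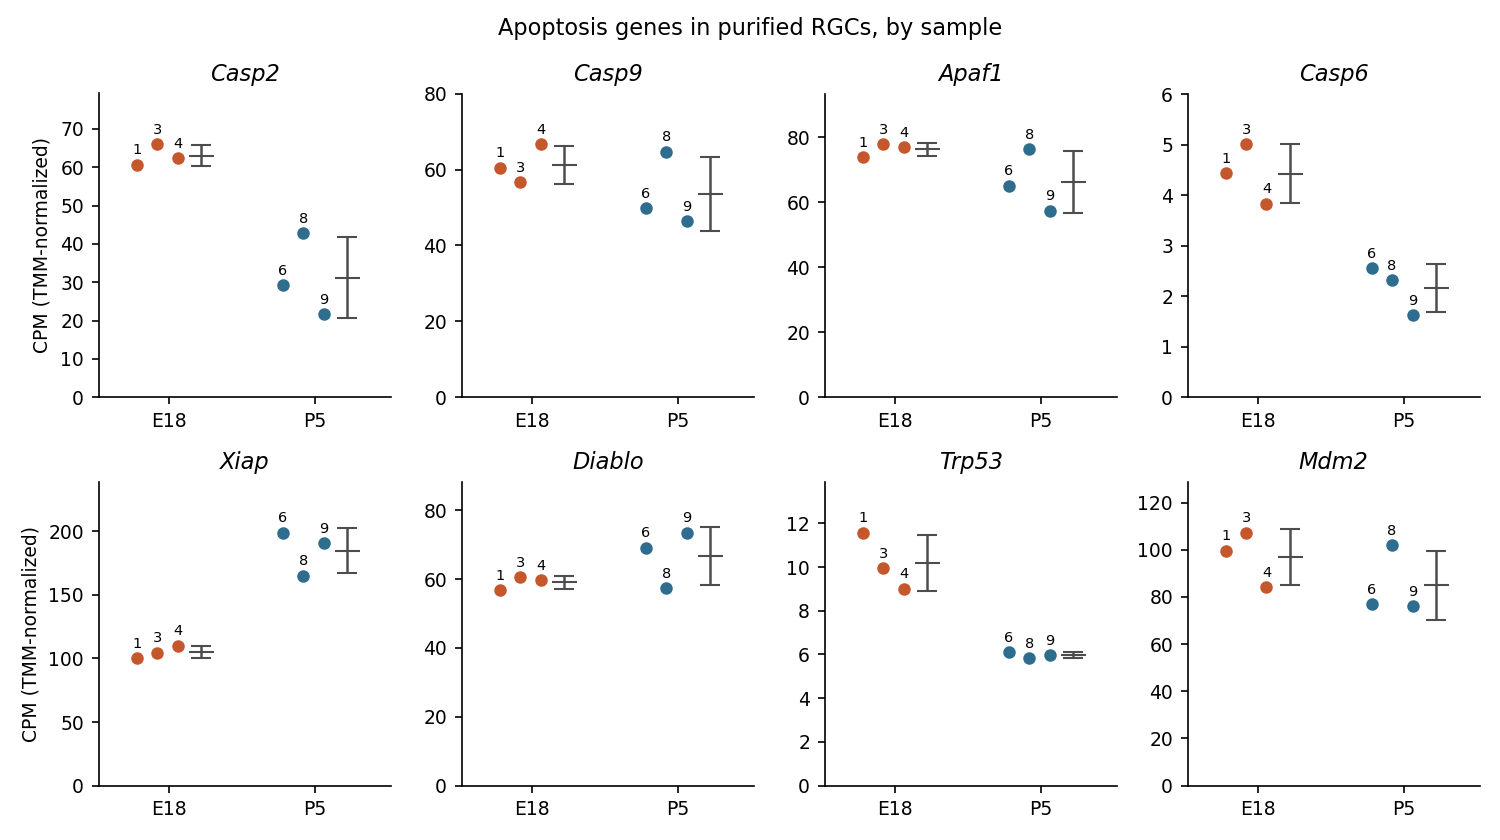
Each point is 1 sample, numbered by its replicate, on a linear axis of TMM-normalized CPM that starts at 0 in every panel, and the bars beside the points give the mean and SD of 3 samples. E18 lay above P5 in Casp2, Casp6 and Trp53 and below it in Xiap, without overlap, while P5 replicate 8 lay within or next to the E18 samples for Casp9, Apaf1, Diablo and Mdm2.

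P5 replicate 8 was the P5 sample nearest to the E18 mean for 6 of the 8 genes, all but Casp6 and Trp53. It was the nearest for 52.5% of all tested genes (8629 of 16449), P5 replicate 6 for 28.6% and P5 replicate 9 for 18.9%. Its total of 97807217 reads on genes lay within the range of the other samples. Its summed RGC markers stood at 10649 CPM against 11378 and 11605 CPM in P5 replicates 6 and 9. Single markers, named after their values were seen, went both ways. In the same order, Pou4f2 stood at 255 against 221 and 184 CPM, and Rbpms at 326 against 329 and 291 CPM. Sncg stood at 628 against 691 and 673 CPM, and Slc17a6 at 531 against 762 and 939 CPM. The part of read totals and of these markers in the result was not tested. Without P5 replicate 9, the log2 fold change was 0.10 for Casp9, 0.11 for Apaf1, -0.10 for Diablo and 0.12 for Mdm2, against 0.19, 0.20, -0.17 and 0.19 with all samples. The 4 genes called with all 6 samples passed the test in each of the 6 fits that left out 1 sample. There the log2 fold change ran from 0.81 to 1.29 for Casp2, from 0.86 to 1.15 for Casp6, from 0.67 to 0.85 for Trp53 and from -0.91 to -0.78 for Xiap.

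**Figure D2:**
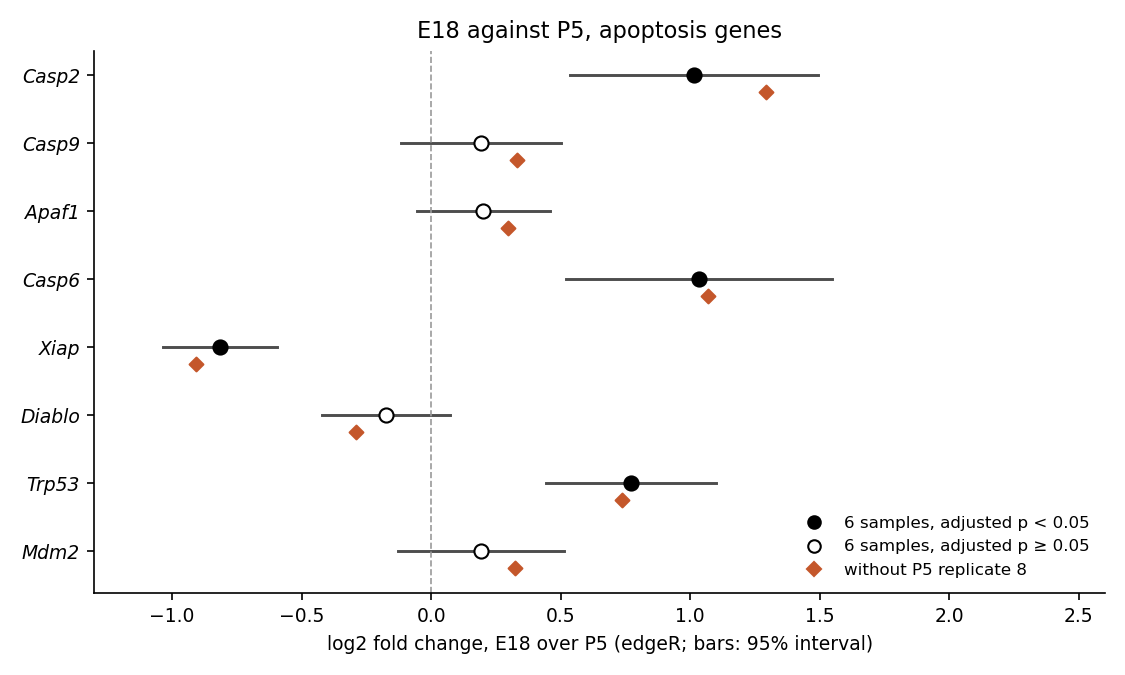
The horizontal axis is the log2 fold change of E18 over P5 from edgeR, with circles for the 6-sample fit (filled where the adjusted p was under 0.05), bars for the 95% interval and diamonds for the fit without P5 replicate 8. Leaving out that sample moved Casp2 from 1.01 to 1.29 and Trp53 from 0.77 to 0.74, and left Xiap and Diablo as the genes below 0.

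Levels of different genes were compared per kilobase of exon, since a longer transcript yields more reads. On the CPM per kilobase scale, Diablo stood highest of the 8 genes at both ages, at 37.5 at E18 and 42.3 at P5, and Casp6 lowest, at 3.04 and 1.49. Trp53 was next to lowest, at 5.45 and 3.20, far below its inhibitor Mdm2 at 31.3 and 27.4. Between these, the order at E18 was Casp2 (17.9), Casp9 (15.7), Xiap (14.8) and Apaf1 (11.6), in which the sample ranges of Casp9 and Xiap overlapped. At P5 the order was Xiap (26.0), Casp9 (13.8), Apaf1 (10.1) and Casp2 (8.84). There the ranges of Xiap and Mdm2 overlapped, as did those of Apaf1 and Casp2, and no other neighbours in either order overlapped. Casp2 had the highest mean of Casp2, Casp6 and Casp9 at E18 and a mean below that of Casp9 at P5, where their sample ranges (6.15 to 12.1 and 11.9 to 16.6) overlapped. Among all tested genes ranked by mean CPM, Xiap lay at percentile 90.3, Trp53 at 38.1 and Casp6 at 28.7.

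Ratios of read counts within a sample do not depend on library normalization, and 4 of them were compared between the ages by an exact permutation test, two-sided, for which 3 samples against 3 cannot give a p below 0.1. The ratio of Xiap to Casp9, inhibitor to protease, was 1.66, 1.84 and 1.65 at E18 and 4.00, 2.55 and 4.10 at P5, a 2.02-fold difference of the geometric means without overlap. The ratio of Diablo to Xiap, antagonist to inhibitor, was 0.566, 0.580 and 0.543 at E18 and 0.348, 0.348 and 0.386 at P5, again without overlap. The ratio of Mdm2 to Trp53 was 8.61, 10.8 and 9.32 at E18 and 12.6, 17.5 and 12.7 at P5. Each of these 3 ratios separated the ages completely and reached the smallest p the exact test allows, 0.1 (0.133 adjusted over the 4 ratios). The values of 56.1% of all single genes separated the ages as well. Each of the 3 ratios holds Xiap or Trp53, whose own values did so, and thus is not independent of the results gene by gene. The ratio of Apaf1 to Casp9, the partners of the apoptosome, was 1.25 ± 0.113 at E18 and 1.24 ± 0.0646 at P5 (SD, n = 3), with a log2 difference of 0.01 and p = 1 by the exact test.

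**Figure D3:**
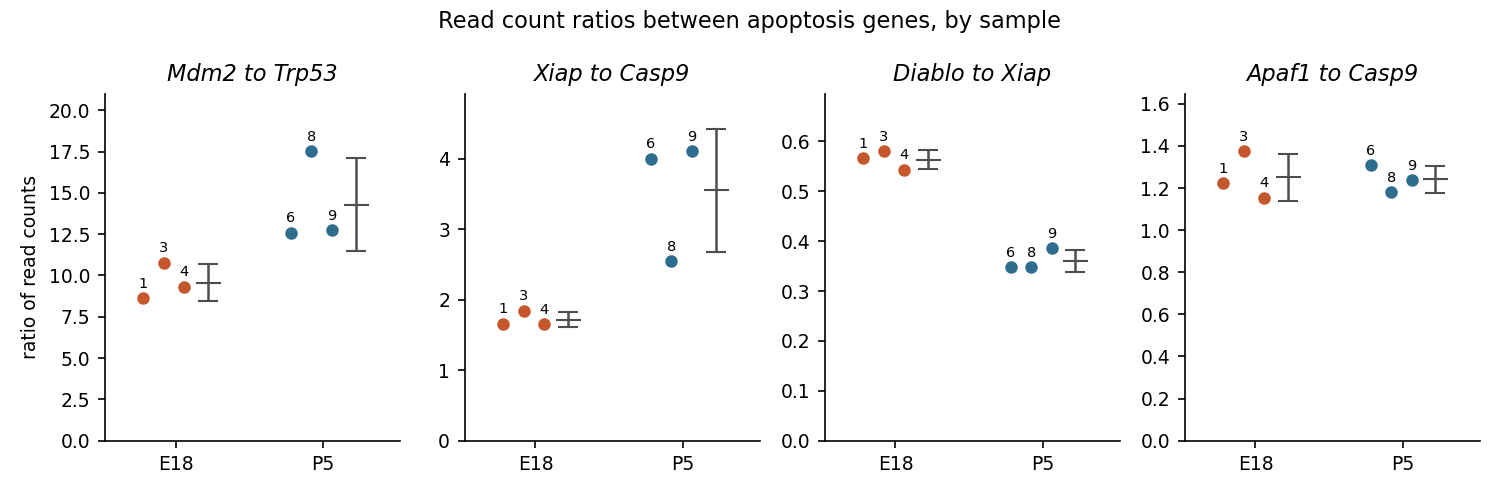
Each point is the ratio of the read counts of a pair of genes in 1 sample, numbered by its replicate, on linear axes that start at 0, with the mean and SD of 3 samples beside the points. Xiap to Casp9 and Mdm2 to Trp53 were higher in every P5 sample than in any E18 sample, Diablo to Xiap was lower, and Apaf1 to Casp9 overlapped.

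Around the 8 genes, 126 further genes of the same pathways were tested, in 6 lists. Of these, 61 were called (48.4%), 37 higher and 24 lower at E18, by the same edgeR fit and against the same 43.4% of all genes.

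Among the other caspases and the death receptor genes, 15 of 23 were tested, and 3 were higher and 4 lower at E18, with a median log2 fold change of 0.16. That was 46.7% called, against 43.4% of all genes. The inhibitors of death receptor signalling Cflar (cFLIP, log2 fold change -1.75) and Faim2 (-1.97) were lower at E18, at 2.79 and 3.76 CPM against 9.34 and 14.8 CPM at P5 (adjusted p = 0.000232 and 0.000536 by edgeR). Pidd1, the gene of the PIDDosome scaffold that activates caspase-2, was higher at E18, at 3.41 against 1.45 CPM, with a log2 fold change of 1.24. Cradd, another gene of the PIDDosome, named after its value was seen, did not pass. It stood at 3.93 against 3.45 CPM, with a log2 fold change of 0.19 (adjusted p = 0.421 by edgeR). Further called genes, named after their values were seen, included the death domain genes Ripk1 (0.84) and Tradd (0.39), higher at E18, and the receptor gene Tnfrsf21 (-0.36), lower.

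Of the 20 genes of mitochondrial release and of the apoptosome, edgeR called 6 lower at E18 and 0 higher, with a median log2 fold change of -0.16. At an unadjusted p under 0.05 these were 8 and 1, and DESeq2 called 7 and 0. Without P5 replicate 8 edgeR called 8 lower and 1 higher, where 52.5% of all genes passed. With all samples 30.0% of the list was called, against 43.4% of all genes, 22.5% lower and 20.8% higher. Cycs (cytochrome c) stood at 73.7 ± 2.54 CPM at E18 and 108 ± 13.1 CPM at P5, with a log2 fold change of -0.55. Nol3 (ARC), an inhibitor of both death pathways, had a log2 fold change of -1.50 and Aven, which binds APAF1, -0.59. Sept4, whose products include the IAP antagonist ARTS, had -0.61, counted over the whole gene. The chaperone Hsp90ab1, at 1606 and 1421 CPM, did not pass.

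Of the inhibitor of apoptosis family and its partners, 10 of 14 were tested and 2 were called in each direction, with a median log2 fold change of 0.02. That was 40.0% called, against 43.4% of all genes. Birc2 (cIAP1) had a log2 fold change of 0.32, at 88.2 against 70.7 CPM, but did not pass without E18 replicate 1, 3 or 4 or without P5 replicate 9 (adjusted p up to 0.0922 by edgeR). Traf1, an adaptor that binds cIAPs, was lower at E18, at 0.608 against 3.65 CPM (log2 fold change -2.58). Birc6, the largest inhibitor by size of protein, stood at 325 and 329 CPM and did not pass. The other called genes, Birc7 (higher) and Naip5 (lower), averaged under 1 CPM and are named after their values were seen, and the reads of Naip5 may be shared with its close copies.

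Among the proteins cut by caspases and the nuclease genes, 10 of 21 were higher and 4 lower at E18, with a median log2 fold change of 0.29. That was 66.7% called, against 43.4% of all genes, 20.8% higher and 22.5% lower. Lmnb1 (lamin B1) stood at 75.8 ± 6.51 CPM at E18 and 32.5 ± 13.3 CPM at P5, with a log2 fold change of 1.22. Vim (vimentin, 1.18) and the actin-severing protein gene Gsn (gelsolin, 0.93) were also higher, and App, the amyloid precursor gene, was lower (-0.68). The other genes called lower, named after their values were seen, were the kinase gene Stk3 (-0.42), Gas2 (-0.33) and the small GTPase gene Cdc42 (-0.27). Sptan1 (alpha-spectrin), at 2827 and 3131 CPM, did not pass. The count of called genes in this list was 9 of 21 without E18 replicate 1, 3 or 4 or without P5 replicate 6. In those fits 5110, 4575, 5861 and 5589 of all genes were called, in that order, against 7135 with all samples. Vim is also a marker of Müller glia and astrocytes.

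Of 27 tested genes that regulate p53, edgeR called 16 higher at E18 and 0 lower, and the median log2 fold change was 0.45. That was 59.3% called, against 43.4% of all genes, 20.8% higher and 22.5% lower. At an unadjusted p under 0.05 there were 17 higher and 1 lower, and DESeq2 called 16 and 1. Omitting single samples gave from 11 called (without E18 replicate 3) to 19 (without P5 replicate 8, 18 higher and 1 lower). Calls over all genes in these 2 fits were 4575 and 8796, against 7135 with all samples. Hipk2, a kinase that phosphorylates p53, stood at 47.1 ± 3.01 CPM at E18 and 24.1 ± 5.37 CPM at P5 (log2 fold change 0.97). Hexim1 (0.96), which binds p53, and Trp53bp2 (ASPP2, 0.90), which directs it to death genes, were close to it, and Ccdc8 had the largest change (2.13) at 3.64 against 0.832 CPM. Huwe1, a ubiquitin ligase of p53, at 414 and 378 CPM, did not pass. Markers of dividing cells (9 of 14) and of Müller glia and astrocytes (3 of 8 tested) were also called higher at E18, and their part in this count was not tested.

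Of 35 targets of p53 tested, 7 were higher and 8 lower at E18 (42.9% called, against 43.4% of all genes), with a median log2 fold change of 0.15. These shares were near those of all genes in both directions. Cdkn1a (p21), the best known target and an inhibitor of the cell cycle, was lower at E18, where Trp53 was higher, at 15.9 ± 1.35 CPM against 35.2 ± 1.88 CPM at P5 (log2 fold change -1.15, adjusted p = 0.000243 by edgeR). Perp, a membrane protein gene, was lower as well (-0.98), though not past the threshold without E18 replicate 3 (adjusted p = 0.0754). The stress response gene Gadd45a (0.86) and Pidd1 (1.24) were higher. Trp53inp1 stood at 64.0 and 44.9 CPM and did not pass, but did without P5 replicate 8 (adjusted p = 0.0229). The number called in this list was 8 without E18 replicate 3, 8 without P5 replicate 6 and 23 without P5 replicate 8, against 15 with all samples. Calls over all genes moved the same way, to 4575, 5589 and 8796 in these fits, against 7135 with all samples.

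**Figure D4:**
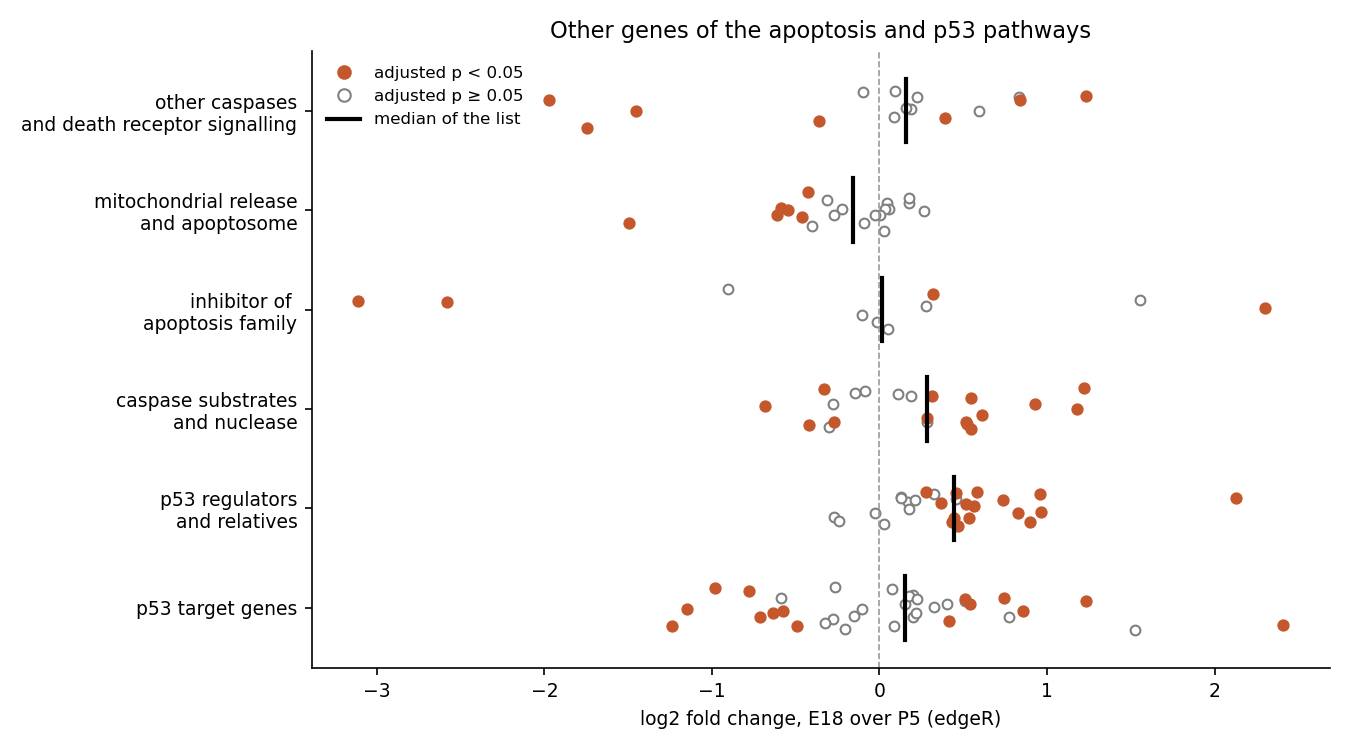
Each point is 1 tested gene of a list, placed by its log2 fold change of E18 over P5 from edgeR, with filled points where the adjusted p was under 0.05 and a black line at the median of the list (points are spread vertically for legibility). All filled points of the p53 regulators lie above 0 and all filled points of mitochondrial release lie below it, while the p53 targets are spread to both sides.

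The 15 RGC markers summed to 10609 to 12182 CPM at E18 and 10649 to 11605 CPM at P5, and single markers differed between the ages, with 4 called higher and 4 lower at E18. Markers of other cells were present too. The summed level of 14 genes of dividing cells was 409, 180 and 123 CPM in E18 replicates 1, 3 and 4 and 99.4 to 118 CPM at P5, with 9 of the 14 called higher at E18. Trp53, at 11.6, 9.95 and 9.01 CPM in the same E18 samples, stood in the same order, and without E18 replicate 1 its log2 fold change was 0.67 (adjusted p = 0.0205 by edgeR). Casp2 (1.05) and Casp6 (1.04) moved little when that sample was left out. Without E18 replicate 3 they stood at 0.98 and 0.94, and without E18 replicate 4 at 1.02 and 1.13. The 10 markers of Müller glia and astrocytes summed to 404 to 450 CPM at E18 and 271 to 326 CPM at P5. The 8 markers of amacrine cells summed to 1491 to 1689 CPM at E18 and 1789 to 2004 CPM at P5. Although that sum was lower at E18, 3 of the 8 amacrine markers were called higher there and 1 lower. The 11 markers of microglia and macrophages reached at most 3.32 CPM in sum. The 8 markers of endothelial cells and pericytes reached 72.5, 64.4 and 16.4 CPM in E18 replicates 1, 3 and 4 and 14.5 to 17.7 CPM at P5. Of the 7 of them that were tested, 1 was called higher and 3 lower at E18, so the sum does not stand for each marker. No marker of any list was at 0 in every sample. The part of these cells in the differences of the 8 genes and of the lists was not tested.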

How the data were processed

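RNA was sequenced from immunopanned RGCs of C57BL/6 mice, with 3 samples at E18 and 3 at P5, grouped by title. The authors used STAR for alignment to mm10 and HT-seq for counting on RefSeq annotation, and the raw counts they deposited are the values used here. The submitters' processing notes name CASAVA 1.8.2 and edgeR. The labels name polyA RNA, whereas the protocol names ribosomal RNA depletion. Strand and the treatment of reads mapping to several places are not given in the sources used here. The normalized counts (a signal), log2 fold changes, p-values and rank that the authors deposited were not used. The name of the column taken as E18 replicate 1 holds 2 and 5 besides 1, and whether preparations were pooled in it is not known.

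Counts summed to 81213639 to 114512853 per sample. Chi-square per degree of freedom between samples of 1 age was 32.1 to 149, far above sampling noise, so precision is set by the spread between samples. After filterByExpr and TMM normalization, counts entered the quasi-likelihood test of edgeR 4.0.16 (R 4.3.3), with Benjamini-Hochberg adjustment over 16449 genes. The test was checked on simulated counts. As alternatives, each sample was omitted in turn, genes were filtered otherwise, upper-quartile factors replaced TMM, and DESeq2 1.42.0 or, in edgeR, the exact or the likelihood ratio test was used.

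The 8 genes and the lists were chosen with earlier results of these data known, and the motifs with the promoters in view. From each list, the 4 called genes with the largest change and a mean of at least 1 CPM and the most highly expressed gene not called are named, except for some items that are not reported here. Coordinates of genes come from GENCODE M21 on mm10. RefSeq promoters matched all 8 genes by symbol, in 10 windows. Those that overlap exons are not printed.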

Additional observations from a re-analysis of the deposited data

How the results depend on the processing

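No paired analysis was run, because cells taken at E18 and at P5 cannot come from the same animal and the labels link no samples across ages. Upper-quartile factors, both other filters, DESeq2 and, in edgeR, the likelihood ratio or the exact test left the calls of all 8 genes as they were. Omitting single samples gave 4 to 8 of the 8 genes called. The 8 came without P5 replicate 8. Over all genes such omissions gave 4575 to 8796 calls against 7135, the lowest without E18 replicate 3, and over the 126 pathway genes 41 to 77 against 61, with 9 to 17 among caspase substrates and 8 to 23 among p53 targets. In the inhibitor of apoptosis family, a minimum of 1 CPM in 3 samples left 7 genes tested and 2 called. With no filter, the list of other caspases and death receptor genes had 2 genes called higher and 6 lower, of 23 tested. The log2 difference of Apaf1 to Casp9, 0.01, ranged from -0.0628 (without E18 replicate 3) to 0.0634 and was -0.0287 without P5 replicate 8. Birc6, which was not called, changed sign (-0.0581 to 0.0653, positive without E18 replicate 4). The cause of these changes was not tested. With 3 samples at each age, differences of the size of Casp9, Apaf1, Diablo and Mdm2 lay within intervals that include 0, and Casp6 had the fewest reads behind its value.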

Other observations

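For each of the 8 genes, the gene with the most similar profile was found among 9719 genes whose mean reached 10 CPM, as the smallest Euclidean distance between log2 CPM values centred on their mean over the 6 samples. Diablo was nearest to Drg1 (distance 0.0341) and Xiap to Tcaim (0.0352), which stood at 8.05, 8.36 and 8.74 CPM at E18 and at 16.2, 13.3 and 15.6 CPM at P5. Apaf1 was nearest to Mzt1 (0.0452), Casp9 to Mrgbp (0.0908), Trp53 to H1f0 (0.104), Mdm2 to Adnp (0.112), Casp2 to St8sia2 (0.145) and Casp6 to Tiparp (0.195). St8sia2, which encodes a polysialyltransferase that modifies the neural cell adhesion molecule, shared the spread of Casp2 at P5, with 17.1, 23.8 and 11.4 CPM in replicates 6, 8 and 9 after 34.6, 37.7 and 32.8 CPM at E18. These are descriptions over 6 samples, and many genes differ between the ages.

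Several genes of the pathways, named here after their values were seen, were near the limit of detection. Casp8, the initiator caspase of the death receptors, had 28, 15 and 2 reads at E18 and 4, 6 and 3 at P5, and Fas, a death receptor gene, had 6, 4 and 2 reads and 8, 0 and 12 reads. Casp1, the inflammatory caspase, had 0 reads in every E18 sample and 9, 6 and 12 reads at P5. The p53 relatives Trp63 and Trp73 had 3 to 15 reads in every sample. None of these passed the filter on low counts. In the edgeR fit with no such filter, over 21649 genes, Casp1 was called lower at E18 (adjusted p = 0.00446), and Casp8 (adjusted p = 0.109), Fas (0.582), Trp63 (0.681) and Trp73 (0.231) were not called. Mdm4, a relative of Mdm2 that also restrains p53, was higher at E18, at 106 ± 2.76 CPM against 76.5 ± 8.80 CPM at P5 (SD, n = 3), with a log2 fold change of 0.47 (adjusted p = 0.00729 by edgeR).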
